A study of Mus musculus with 24 samples.

Results

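The genes described here are 10 markers and regulators of bone marrow monocytes: Ly6c2, Ccr2, Cx3cr1, Csf1r, Cd14, Ly86, Irf8, Klf4, Fn1 and F13a1. They were chosen by name, with earlier results of these data known, and their rows were found through the Ensembl identifiers and GENCODE M21. All 10 of 10 were in the table of 54752 genes, and all 10 were among the 12373 genes that had a TPM (a transcript level scaled for transcript length and library size) above 1 in at least 1 library. RNA-seq was performed on cryopreserved bone marrow cells of 24 male C57BL/6 mice, 6 in each of 4 groups with a library per mouse. GC-WT were wild-type ground control mice, FL-WT wild-type mice flown in space for 31 days, GC-KO Nrf2-deficient (Nrf2-KO) ground control mice and FL-KO Nrf2-KO mice from the same flight. The mice were 8 weeks old at transport. Flown mice were sampled after their return to the ground, and "in flight" below refers to these mice. Flight and ground mice were not sampled at the same place, so flight cannot be told apart from landing or place. The cells were not sorted, so each value is an average over all cells of the marrow, and fewer cells of a type and less RNA per cell cannot be told apart.

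Monocytes arise in the marrow from myeloid progenitors under the transcription factors PU.1, Irf8 and Klf4, and they depend on the growth factor receptor Csf1r. In mice, the classical monocyte carries much Ly6C and the chemokine receptor Ccr2, with which it leaves the marrow for inflamed tissue, whereas the patrolling, non-classical monocyte carries little Ly6C and much Cx3cr1. Nrf2, the product of Nfe2l2, is the transcription factor that switches on antioxidant and detoxifying genes under oxidative stress.

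Before the comparisons, the libraries were checked. Nfe2l2 lay between 11.4 and 27.3 TPM in the 12 WT mice and between 2.22 and 7.18 TPM in the 12 Nrf2-KO mice, with no overlap. Genes of mature neutrophils summed to between 29852.1 and 67271.2 TPM and erythroid genes to between 50797.2 and 148426.2 TPM per library, as in whole marrow. Rn7sk, Rn7s1, Rn7s2, Rmrp and Rpph1, all small RNAs, held 41.0% to 58.2% of TPM in GC-WT, 40.1% to 59.6% in FL-WT, 35.4% to 48.4% in GC-KO and 46.1% to 59.3% in FL-KO mice. The number of genes above 1 TPM was 10325 to 11413 in GC-WT, 9347 to 10858 in FL-WT, 9918 to 11060 in GC-KO and 8748 to 9996 in FL-KO libraries, and so moved with the groups. It was highest for mouse 7 among the FL-WT mice and for mouse 11 among the GC-KO mice. The part of either measure in the results on the monocyte genes was not tested. The table holds no read counts, so the depth is unknown and no counting error can be given. Over all tested genes, the median log2 fold change was below 0 in every comparison, at -0.24 for flight in WT mice (FL-WT vs. GC-WT), -0.29 for flight in Nrf2-KO mice (FL-KO vs. GC-KO), -0.22 for genotype on the ground (GC-KO vs. GC-WT) and -0.25 for genotype in flight (FL-KO vs. FL-WT). Fold changes of monocyte genes are therefore given beside these medians, and were also computed with median-of-ratios scaling, which brings the medians to between -0.01 and 0.04.

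Most of the monocyte genes were lower in Nrf2-KO mice than in WT mice, to very different degrees. Fn1 and Csf1r fell at least 2-fold on the ground, and Fn1, Csf1r, Klf4, Cx3cr1 and Irf8 did so in flight, whereas Ccr2 and Ly86 did not pass the adjusted p. A gene was called at a Benjamini-Hochberg adjusted p under 0.1 over all tested genes (limma on log2(TPM + 1)) together with a 2-fold or larger change on that scale. On the ground, 2 of 10 monocyte genes were called lower, against 3.04% of all tested genes. In flight, 5 of 10 were called lower, against 8.36% of all tested genes. Since the genes were chosen with earlier results of these data known, these shares describe the list and do not test it. By the adjusted p alone, 8 of 10 were lower on the ground, where 42.9% of tested genes were, and 7 of 10 in flight, where 47.2% were. No monocyte gene was higher at that adjusted p, against 3.13% of tested genes on the ground and 1.91% in flight. With median-of-ratios scaling Ly86 was higher in both, and the share of tested genes higher under that scaling is not at hand. The median log2 fold change of the 10 genes was -0.82 on the ground and -0.94 in flight.

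**Figure D1:**
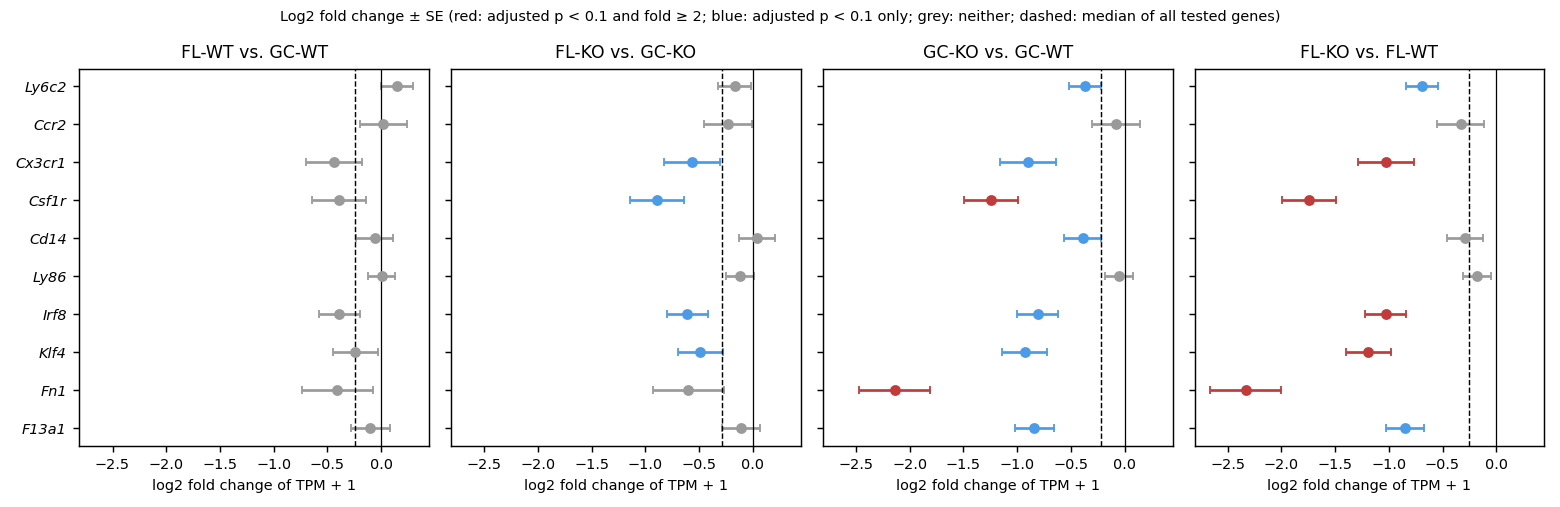
Log2 fold changes of TPM + 1 for the 10 monocyte genes (points, with SE as whiskers) in 4 comparisons of 6 mice with 6. Fn1 and Csf1r are red (adjusted p under 0.1 and at least 2-fold) in both comparisons of Nrf2-KO with WT mice, no gene is red in the comparisons of flight with ground, and Ccr2 and Ly86 are grey (adjusted p not passed) throughout.

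The calls near the 2-fold threshold depended on single libraries. Klf4 and Cx3cr1 missed it in GC-KO vs. GC-WT, but without mouse 11 or mouse 12 of the GC-KO group both passed and 4 monocyte genes were called. Without mouse 10 of the GC-WT group, Klf4 passed and 3 were called. In FL-KO vs. FL-WT, Irf8 and Cx3cr1 lost the fold threshold without mouse 7 or 8 of the FL-WT group or mouse 2 of the FL-KO group, leaving 3 calls. Cx3cr1 alone lost it without mouse 1 or 4 of the FL-KO group, leaving 4, and Irf8, at -0.97, without the 5 small RNAs. By the adjusted p alone, Ly6c2 did not pass on the ground without GC-WT mouse 5 or GC-KO mouse 1 or 4, nor Cd14 without GC-WT mouse 5, 7 or 8 or GC-KO mouse 4, 9 or 12. Fn1 and Csf1r were called in both comparisons whichever library was left out.

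**Figure D2:**
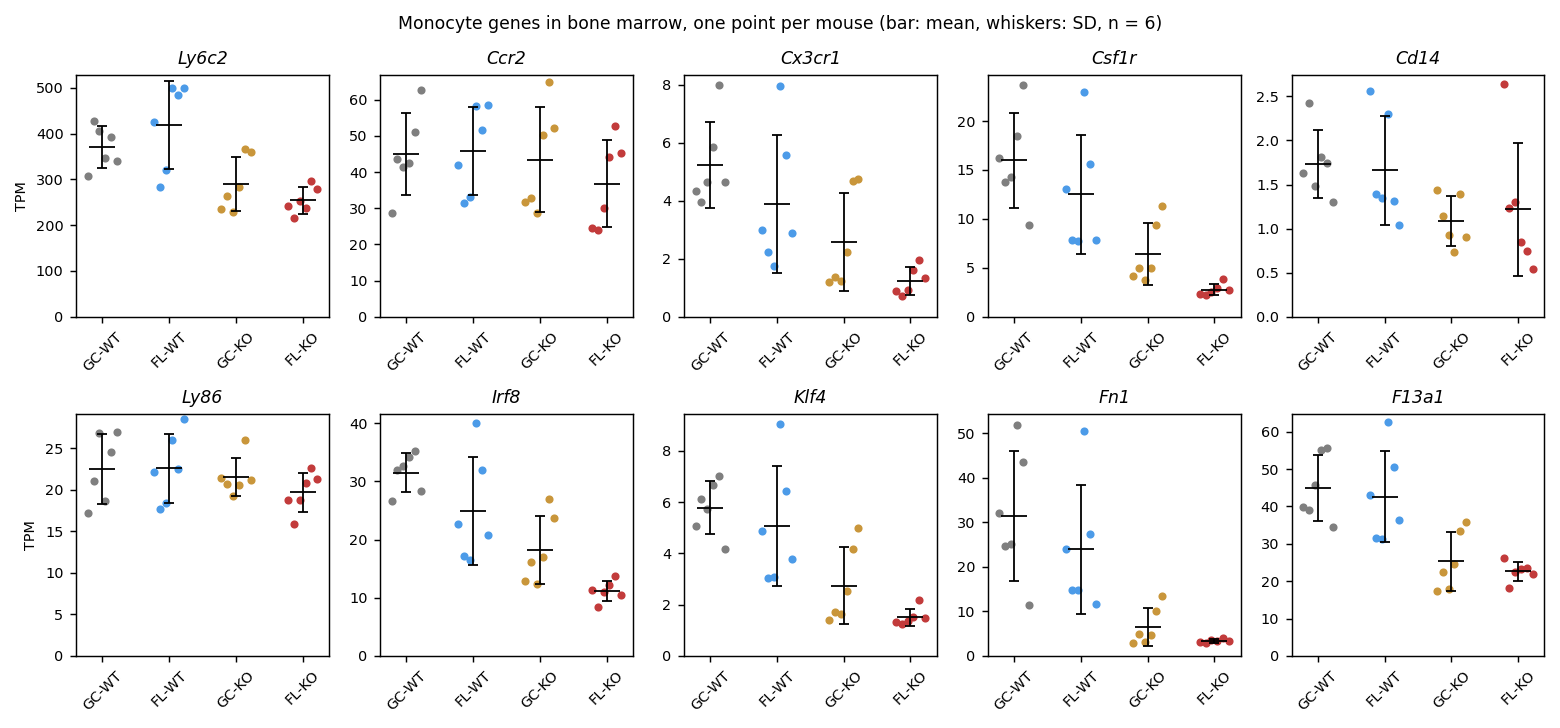
TPM of each of the 10 monocyte genes in 4 groups, with a point per mouse, the mean as a bar and the SD as whiskers (n = 6). The FL-KO points of Csf1r, Irf8, Klf4, Fn1 and F13a1 lie below all FL-WT points, whereas those of Ccr2 and Ly86 overlap in all 4 groups.

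Among the receptors, Csf1r, which binds the growth factors Csf1 and Il34 and keeps monocytes and macrophages alive, changed most. In GC-WT mice it lay between 9.38 and 23.7 TPM (median 15.2), and in GC-KO mice between 3.73 and 11.3 TPM (median 4.95). Among FL-WT mice it lay between 7.76 and 22.9 TPM (median 10.4), and in FL-KO mice between 2.23 and 3.82 TPM (median 2.65). All 6 FL-KO mice were therefore below all 6 FL-WT mice, and 5 of 6 GC-KO mice were below all GC-WT mice. On the ground the log2 fold change was -1.24 ± 0.25 (SE, adjusted p = 0.000597), and in flight -1.74 ± 0.25 (adjusted p = 4.18e-06). With median-of-ratios scaling, it was -0.91 and -1.40, so that on the ground the fold threshold was missed. Csf1r is annotated on chromosome 18 of GRCm38, from 61100598 to 61132149.

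Cx3cr1, the receptor for fractalkine (chromosome 9, 119901616 to 120069879), was a low gene, at 3.95 to 7.99 TPM (median 4.64) in GC-WT mice and 1.18 to 4.74 TPM (median 1.8) in GC-KO mice. The flight mice had 1.76 to 7.95 TPM (median 2.94) when WT and 0.7 to 1.94 TPM (median 1.14) when Nrf2-KO. The GC-KO group was split, with mice 11 and 12 at 4.67 and 4.74 TPM within the range of the WT mice and the other 4 below it. Cx3cr1 had a log2 fold change of -0.90 ± 0.26 on the ground (adjusted p = 0.00807) and -1.03 ± 0.26 in flight (adjusted p = 0.00213). At these levels the added 1 shrinks the fold change, and the ratio of mean TPM was 0.491 and 0.317. With median-of-ratios scaling it was -0.63 and -0.76 on the log2 scale, under the fold threshold in flight. NK cells also use Cx3cr1, and the summed TPM of 8 T and NK cell genes was 45.9 to 71.7 in GC-WT, 39.9 to 79.0 in FL-WT, 39.9 to 63.2 in GC-KO and 36.5 to 55.9 in FL-KO mice, with none of them at 0 and 0 and 1 of 8 called lower. By the adjusted p alone, 3 of 8 were lower and 1 higher on the ground, against 42.9% and 3.13% of tested genes. In flight 5 of 8 were lower, against 47.2%. The medians of these genes were -0.25 and -0.38, against -0.22 and -0.25 for all tested genes. Their part in the result was not tested.

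Ccr2, the receptor for Ccl2 on which the exit of classical monocytes from the marrow depends (chromosome 9, 124101950 to 124113557), lay between 28.6 and 62.8 TPM (median 43.0) in GC-WT mice and between 28.8 and 64.9 TPM (median 41.5) in GC-KO mice. Values in FL-WT mice were 31.6 to 58.5 TPM (median 46.8), and in FL-KO mice 24.1 to 52.7 TPM (median 37.0). The groups overlapped almost completely. Its log2 fold change was -0.08 ± 0.22 on the ground (adjusted p = 0.824) and -0.33 ± 0.22 in flight (adjusted p = 0.251), and with median-of-ratios scaling it was 0.27 and 0.10. Within both Nrf2-KO groups, mice 9, 11 and 12 lay above mice 1, 2 and 4, at 50.3 to 64.9 TPM against 28.8 to 32.8 TPM on the ground and at 44.1 to 52.7 TPM against 24.1 to 29.9 TPM in flight. This order was noticed after the values were seen and has no test.

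Ly6c2, which encodes the Ly6C antigen of classical monocytes (chromosome 15, 75108158 to 75111970), was the most abundant of the 10 genes per length. It lay between 306.6 and 427.4 TPM (median 370.2) in GC-WT mice and between 229.7 and 366.2 TPM (median 274.3) in GC-KO mice. In flight, it lay between 283.5 and 500.2 TPM (median 454.7) in FL-WT mice and between 215.0 and 296.6 TPM (median 247.4) in FL-KO mice. Of the FL-KO mice, 5 of 6 were below all FL-WT mice. Its log2 fold change was -0.37 ± 0.15 on the ground (adjusted p = 0.0498) and -0.69 ± 0.15 in flight (adjusted p = 0.000395), neither of them 2-fold. With median-of-ratios scaling it was -0.01 on the ground (adjusted p = 0.924) and -0.25 in flight (adjusted p = 0.00673). Its neighbour Ly6c1 is nearly identical in sequence, and was given at most 0.723 TPM on average in any group, so the split of reads between the pair is uncertain.

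The lipopolysaccharide co-receptor gene Cd14 and Ly86, which encodes the MD-1 partner of the receptor Cd180, complete the surface proteins. Cd14 (chromosome 18, 36725067 to 36726798) was at 1.3 to 2.43 TPM (median 1.69) in GC-WT mice and 0.73 to 1.44 TPM (median 1.03) in GC-KO mice. It was at 1.04 to 2.56 TPM (median 1.37) in FL-WT mice and 0.54 to 2.64 TPM (median 1.04) in FL-KO mice. This was the lowest of the 10 genes, above 1 TPM in 18 of 24 libraries, and its groups overlapped. The log2 fold change was -0.39 ± 0.17 on the ground (adjusted p = 0.0673) and -0.29 ± 0.17 in flight (adjusted p = 0.169), and with median-of-ratios scaling it was -0.17 on the ground (adjusted p = 0.484). Ly86 (chromosome 13, 37345208 to 37419036) was at 17.2 to 27.0 TPM (median 22.8) in GC-WT, 17.8 to 28.5 TPM (median 22.4) in FL-WT, 19.3 to 26.0 TPM (median 21.0) in GC-KO and 15.9 to 22.7 TPM (median 19.8) in FL-KO mice. It was the most even of the 10 genes, with a CV of 15.6% over the 24 libraries. Its log2 fold change was -0.05 ± 0.13 on the ground (adjusted p = 0.805) and -0.18 ± 0.13 in flight (adjusted p = 0.289), and it turned to 0.29 (adjusted p = 0.0108) and 0.25 (adjusted p = 0.0216) with median-of-ratios scaling.

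Both transcription factors were lower in Nrf2-KO mice. Irf8 directs progenitors to monocytes and dendritic cells and away from neutrophils (chromosome 8, 120736358 to 120756694). It lay between 26.7 and 35.2 TPM (median 32.3) in GC-WT mice and between 12.3 and 26.9 TPM (median 16.6) in GC-KO mice. In flight, it lay between 16.4 and 40.04 TPM (median 21.8) in FL-WT mice and between 8.46 and 13.8 TPM (median 11.1) in FL-KO mice, with no overlap. The log2 fold change was -0.81 ± 0.19 on the ground (adjusted p = 0.00163) and -1.03 ± 0.19 in flight (adjusted p = 7.91e-05), and with median-of-ratios scaling it was -0.47 and -0.61, no longer 2-fold in flight. Dendritic and B cells also use Irf8. The summed TPM of 9 dendritic cell genes was 37.6 to 50.8 in GC-WT, 28.5 to 47.7 in FL-WT, 33.4 to 50.5 in GC-KO and 26.1 to 37.5 in FL-KO mice, and 0 of the 8 tested were called in either comparison. Of 9 B lineage genes, 1 was called lower in each comparison, and their sum was 183.5 to 270.3 in GC-WT, 95.4 to 234.1 in FL-WT, 126.6 to 189.1 in GC-KO and 81.0 to 130.3 in FL-KO mice. By the adjusted p alone, 5 of 9 B lineage and 2 of 8 dendritic cell genes were lower in each, against 42.9% and 47.2% of tested genes. The B lineage median was -0.70 on the ground and -0.45 in flight, and the dendritic cell median -0.09 and -0.08. No gene of these lists was at 0 in a whole group, and their part in the result was not tested.

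Klf4, which monocytes need to mature and which lies on chromosome 4 from 55527143 to 55532466, was at 4.17 to 7.01 TPM (median 5.94) in GC-WT mice and 1.42 to 5.0 TPM (median 2.12) in GC-KO mice. It was found at 3.04 to 9.05 TPM (median 4.33) in FL-WT mice and 1.23 to 2.17 TPM (median 1.42) in FL-KO mice. As for Cx3cr1, GC-KO mice 11 and 12 reached the WT range, at 4.17 and 5.0 TPM, and the FL-KO and FL-WT groups did not overlap. The log2 fold change was -0.93 ± 0.21 on the ground (adjusted p = 0.00147) and -1.19 ± 0.21 in flight (adjusted p = 5.94e-05), and in flight it was -0.90 with median-of-ratios scaling, under the fold threshold.

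The secreted proteins held the gene with the largest fold change. Fn1 encodes fibronectin, a matrix protein that monocytes and stromal cells make (chromosome 1, 71585520 to 71653200). It lay between 11.4 and 51.8 TPM (median 28.6) in GC-WT mice and between 2.89 and 13.3 TPM (median 4.77) in GC-KO mice. In flight it lay between 11.7 and 50.5 TPM (median 19.5) in FL-WT mice and between 2.95 and 4.06 TPM (median 3.31) in FL-KO mice. All FL-KO mice were below all FL-WT mice, and on the ground only GC-KO mouse 12, at 13.3 TPM, exceeded a WT mouse. The log2 fold change was -2.14 ± 0.33 on the ground (adjusted p = 0.000216) and -2.33 ± 0.33 in flight (adjusted p = 4.18e-06). It stayed past the 2-fold threshold in every scaling tried, at -1.81 and -1.97 with median-of-ratios scaling. Genes of stroma and endothelium, another source of Fn1, summed to 39.5 to 85.3 TPM in GC-WT, 23.3 to 56.8 TPM in FL-WT, 40.9 to 74.8 TPM in GC-KO and 15.4 to 59.4 TPM in FL-KO mice. None of the 6 tested was called in either comparison, and the 2 genotypes overlapped in this sum on the ground and in flight. By the adjusted p alone, 2 of 6 were lower in each, against 42.9% and 47.2% of tested genes. The list had medians of -0.02 and -0.19, against -0.22 and -0.25 for all tested genes. The part of these cells in the result was not tested.

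F13a1, the A subunit of coagulation factor XIII, which monocytes and megakaryocytes make (chromosome 13, 36867178 to 37050244), was at 34.4 to 55.5 TPM (median 42.8) in GC-WT mice and 17.3 to 36.0 TPM (median 23.6) in GC-KO mice. It was found at 31.2 to 62.5 TPM (median 39.8) in FL-WT mice and 18.1 to 26.2 TPM (median 22.9) in FL-KO mice, again with no overlap. The change was nearly the same on the ground and in flight and under 2-fold, with a log2 fold change of -0.84 ± 0.18 (adjusted p = 0.000892) and -0.85 ± 0.18 (adjusted p = 0.000339). With median-of-ratios scaling these were -0.49 and -0.42. The 7 megakaryocyte and platelet genes summed to 92.0 to 299.6 TPM in GC-WT, 46.4 to 159.1 TPM in FL-WT, 96.2 to 183.7 TPM in GC-KO and 31.1 to 137.2 TPM in FL-KO mice, with 0 called in either comparison and none at 0. By the adjusted p alone, 2 of 7 were lower on the ground and 4 in flight, against 42.9% and 47.2% of tested genes. Their medians were -0.23 and -0.46, against -0.22 and -0.25 for all tested genes. Their part in the result was not tested.

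Exact two-sided permutation tests of 6 mice against 6 gave p = 0.00216, the smallest this design allows, for Csf1r, Irf8, F13a1, Klf4 and Fn1 in FL-KO vs. FL-WT. These were the 5 of 10 monocyte genes with all FL-KO mice below all FL-WT mice, which held for 20.6% of tested genes. On the ground it held for none of the 10 and for 9.15% of tested genes. There, the exact permutation p was 0.00433 for Csf1r, Irf8, F13a1 and Fn1, with 5 of 6 GC-KO mice below all GC-WT mice. The comparisons of Nrf2-KO with WT mice share no mice with each other, but each shares a group with each of the comparisons between flight and ground.

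In WT mice, no monocyte gene passed the test after spaceflight in the fit of all 24 libraries, but 5 passed the adjusted p without mouse 7 of the FL-WT group. With limma, 0 of 10 were called, against 0.938% of tested genes, and 0 of 10 were lower by the adjusted p alone, where 39% of tested genes were. For none did all FL-WT mice lie below all GC-WT mice, which held for 4.19% of tested genes. The log2 fold changes ran from -0.44 ± 0.26 for Cx3cr1 (adjusted p = 0.191) to 0.15 ± 0.15 for Ly6c2 (adjusted p = 0.424), and their median, -0.17, was close to that of all genes. Irf8 had the lowest adjusted p, 0.109, at a log2 fold change of -0.39 ± 0.19. It was the 1 of 10 monocyte genes with an unadjusted p under 0.05 (limma), which 5291 of 12373 tested genes had in either direction. With median-of-ratios scaling, 3 genes were higher by the adjusted p, Ly6c2 at 0.50 (adjusted p = 8.78e-05), Ly86 at 0.34 (adjusted p = 0.00912) and Ccr2 at 0.36 (adjusted p = 0.0708). The share of tested genes higher under this scaling is not at hand. In either direction, 4683 of 12373 had an unadjusted p under 0.05 (limma). Mouse 7 was the highest FL-WT mouse for Csf1r, Irf8, F13a1, Cx3cr1, Klf4 and Fn1. Without it, 5 of 10 genes were lower by the adjusted p, namely Irf8 at -0.54 (limma, adjusted p = 0.0146), Cx3cr1 at -0.64 (adjusted p = 0.035), Csf1r at -0.58 (adjusted p = 0.0424), Fn1 at -0.66 (adjusted p = 0.082) and Klf4 at -0.40 (adjusted p = 0.0976), none of them 2-fold. The share of all tested genes lower in the fit without mouse 7 is not at hand, so this count cannot be set against it. Irf8 also passed the adjusted p without FL-WT mouse 8, without GC-WT mouse 3 and without the 5 small RNAs (adjusted p = 0.0579, 0.0863 and 0.0335). Irf8 had an SD of 9.3 TPM in FL-WT and 3.36 TPM in GC-WT mice (n = 6 each).

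In Nrf2-KO mice, Csf1r, Irf8, Klf4 and Cx3cr1 were lower after flight by the adjusted p, with no 2-fold change on the log2(TPM + 1) scale. The added 1 shrinks the change of low genes, and the ratio of mean TPM was 0.431 for Csf1r, 0.481 for Cx3cr1, 0.552 for Klf4 and 0.616 for Irf8. With limma, 0 of 10 were called, against 2.13% of tested genes. An unadjusted p under 0.05 was reached by 4 of 10, and by 6492 of 12373 tested genes in either direction. Csf1r came closest, at a log2 fold change of -0.89 ± 0.25 (adjusted p = 0.00674), and without GC-KO mouse 4 it reached the threshold and was called, as it was at -1.08 with a pseudocount of 0.1. By the adjusted p alone 4 of 10 were lower, where 53.1% of tested genes were. Besides Csf1r, these were Irf8 at -0.61 ± 0.19 (adjusted p = 0.0133), Klf4 at -0.49 ± 0.21 (adjusted p = 0.0633) and Cx3cr1 at -0.57 ± 0.26 (adjusted p = 0.0784). Csf1r and Irf8 passed it whichever library was left out. Cx3cr1 did not without GC-KO mouse 9, 11 or 12 or FL-KO mouse 1, 2 or 4 (adjusted p = 0.105 to 0.227), nor Klf4 without GC-KO mouse 11 or 12 or FL-KO mouse 1 or 2 (adjusted p = 0.108 to 0.19), so that 2 of 10 were left without any 1 of GC-KO mice 11 and 12 and FL-KO mice 1 and 2. With median-of-ratios scaling, Csf1r alone of these kept its adjusted p, at -0.55 (adjusted p = 0.0278), and the other 3 lay between -0.31 and -0.20. Ly6c2 at 0.26 (adjusted p = 0.0107), Ly86 at 0.29 (adjusted p = 0.0174) and F13a1 at 0.31 (adjusted p = 0.0398) were then higher. The share of tested genes higher under this scaling is again not at hand. In either direction, 5250 of 12373 had an unadjusted p under 0.05 (limma). No monocyte gene had all FL-KO mice below all GC-KO mice, which held for 18.4% of tested genes. Fn1, at -0.60 ± 0.33 (adjusted p = 0.135), F13a1, at -0.11 ± 0.18, Ly6c2, at -0.17 ± 0.15, Ccr2, Ly86 and Cd14 did not pass.

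Whether flight acted differently in the 2 genotypes was tested with the interaction. It was not significant for any of the 10 genes (limma, adjusted p = 1 for each), and 0.0162% of tested genes were lower by it at an adjusted p under 0.1. The estimate was -0.50 ± 0.35 for Csf1r, -0.33 ± 0.21 for Ly6c2 and -0.26 ± 0.30 for Klf4, with the 95% interval of Csf1r reaching down to -1.19. The unadjusted p was lowest for Ly6c2, at 0.129.

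Ratios within a library set monocyte genes against each other. The 3 ratios, Csf1r to Ly6c2, Cx3cr1 to Ly6c2 and Irf8 to Klf4, were each compared in 4 comparisons with exact two-sided permutation tests, adjusted over 12 tests. Csf1r fell relative to Ly6c2 in 3 of them. The log2 ratio of TPM + 1 was between -5.04 and -4.00 (median -4.45) in GC-WT mice and between -5.82 and -4.39 (median -4.97) in FL-WT mice. In GC-KO mice it was between -5.61 and -4.87 (median -5.50), and in FL-KO mice between -6.23 and -5.92 (median -6.11). The FL-KO mice lay below all other mice. Between genotypes, the difference was -0.87 ± 0.22 (SE) on the ground and -1.05 ± 0.20 in flight, and between flight and ground it was -0.72 ± 0.13 in Nrf2-KO mice (exact permutation test, adjusted p = 0.013 for each). For flight in WT mice it was -0.54 ± 0.26 (exact permutation test, adjusted p = 0.0779).

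Cx3cr1 relative to Ly6c2, which sets the receptor of non-classical against the antigen of classical monocytes, differed by -0.60 ± 0.23 between flight and ground in WT mice and by -0.54 ± 0.21 between genotypes on the ground (exact permutation test, adjusted p = 0.0631 for both). The difference was -0.40 ± 0.18 for flight in Nrf2-KO mice (exact permutation test, adjusted p = 0.0747) and -0.34 ± 0.20 for genotype in flight (exact permutation test, adjusted p = 0.156). With a pseudocount of 0.1 these differences were -0.72, -0.83, -0.66 and -0.77, with unadjusted p = 0.0368, 0.0238, 0.0541 and 0.0281 by the same exact test, so that the last of them more than doubled. The log2 ratio of Irf8 to Klf4 had group medians between 2.12 and 2.39, and it differed by -0.16 ± 0.06 between flight and ground in WT mice (exact permutation test, adjusted p = 0.013), which a pseudocount of 0.1 ended, at -0.12 (exact permutation test, unadjusted p = 0.188). Between genotypes in flight it differed by 0.17 ± 0.06 (exact permutation test, adjusted p = 0.0571), and by 0.50 with a pseudocount of 0.1 (exact permutation test, unadjusted p = 0.00216), so both ratios depend on the pseudocount.

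**Figure D3:**
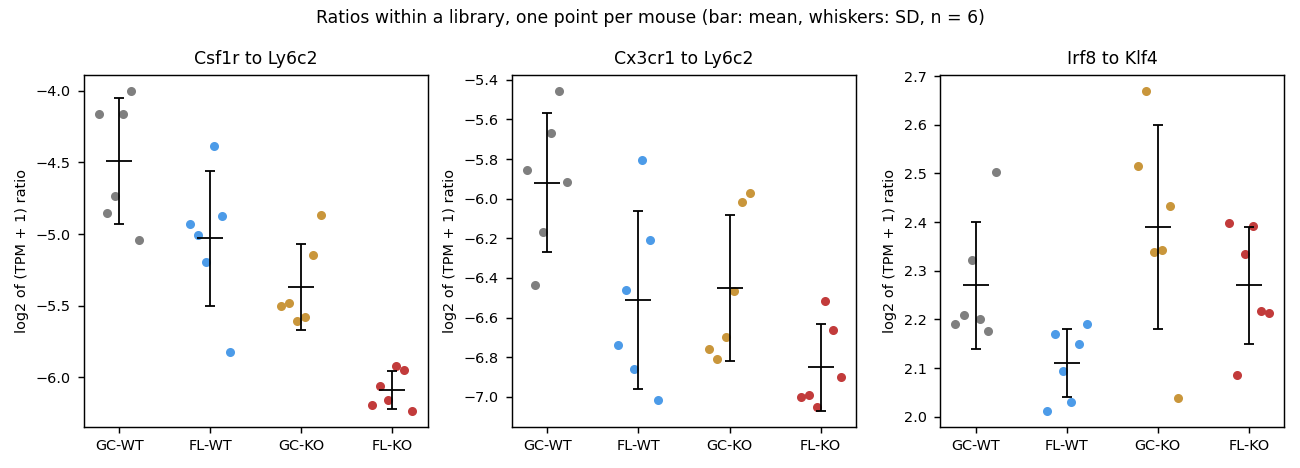
Log2 ratios of TPM + 1 within a library for Csf1r to Ly6c2, Cx3cr1 to Ly6c2 and Irf8 to Klf4, with a point per mouse, the mean as a bar and the SD as whiskers (n = 6). For Csf1r to Ly6c2, the 6 FL-KO mice lie at -6.23 to -5.92, below every other mouse.

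The genes differed in base composition, whose part in the results was examined by removing its trend. Of the 6 genes whose longest transcript had more G and C than the median of tested genes, 49.1%, the 5 called in flight were Csf1r with 54.5%, Klf4 with 54.6%, Fn1 with 53.5%, Irf8 with 51.7% and Cx3cr1 with 50.3%, and the other was Cd14 with 52.5%. Ccr2 with 39.4%, F13a1 with 45.9%, Ly86 with 47.9% and Ly6c2 with 48.3% lay below it. After each library's dependence on GC content and transcript length was taken out, Fn1 was called on the ground at -1.78 and Csf1r, at -0.93, was not, and Fn1 and Csf1r in flight at -1.95 and -1.36. Klf4, Cx3cr1 and Irf8 were then at -0.87, -0.84 and -0.81 in flight, past the adjusted p but not the fold threshold. F13a1 was at -0.83 on the ground and -0.89 in flight, nearly as without this step.

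**Figure D4:**
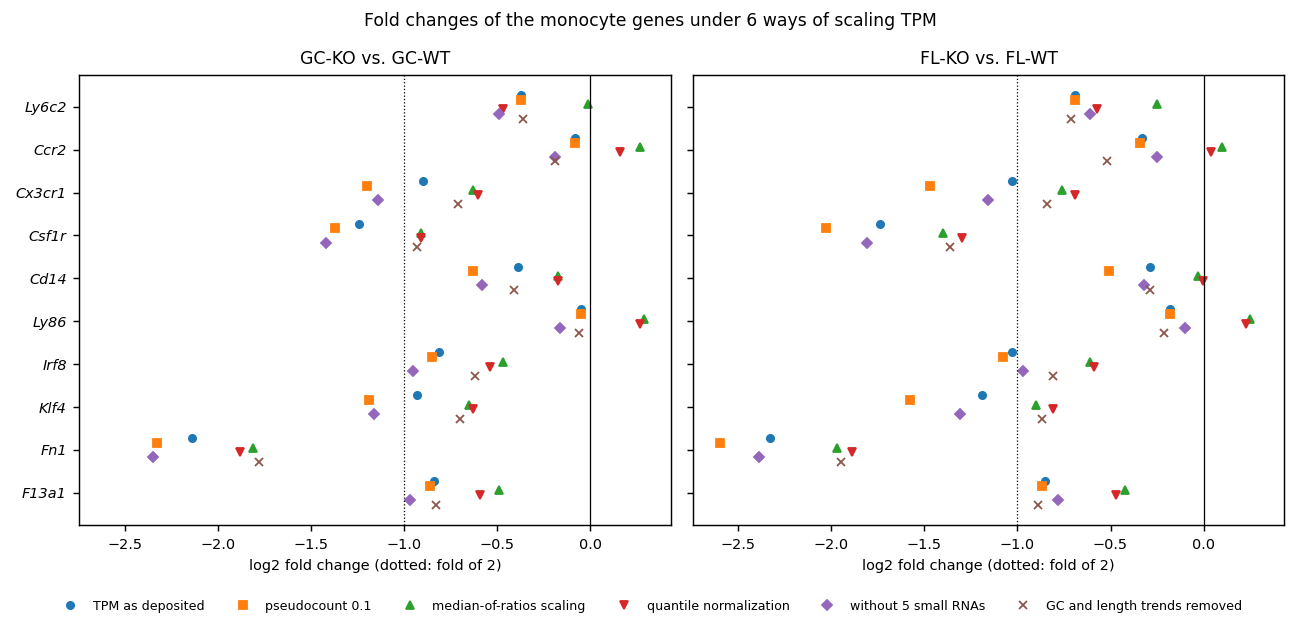
Log2 fold changes of the 10 monocyte genes between genotypes, on the ground (GC-KO vs. GC-WT) and in flight (FL-KO vs. FL-WT), under 6 ways of scaling TPM (6 mice per group, no error bars). Fn1 is left of the 2-fold line in every way shown, Csf1r is left of it throughout in flight, and Ccr2 and Ly86 lie on both sides of 0.

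RefSeq promoter windows on GRCm38.p6 were matched for 7 of the 10 genes, in 10 windows, since some genes have more than 1 start. Only the 250 bases before each start were read, and 5 windows held no base of an annotated exon. They are shown because their genes differ in how they moved: Klf4 and Irf8 were called in flight, F13a1 changed by less than 2-fold and Ly6c2 least of these. Capitals mark matches on either strand to GAGGAAG (core of PU.1 sites), GAAA, any 2 bases and GAAA (interferon regulatory factors), TGACNNNGC (core of the antioxidant response element to which Nrf2 binds) or CACCC (Klf factors).
Klf4, chr4:55532476-55532725, minus strand: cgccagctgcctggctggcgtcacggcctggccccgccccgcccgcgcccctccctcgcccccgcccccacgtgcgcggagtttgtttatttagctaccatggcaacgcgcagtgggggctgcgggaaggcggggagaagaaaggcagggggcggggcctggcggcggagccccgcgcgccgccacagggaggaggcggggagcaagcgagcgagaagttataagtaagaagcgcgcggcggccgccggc
Irf8, first start, chr8:120736108-120736357, plus strand: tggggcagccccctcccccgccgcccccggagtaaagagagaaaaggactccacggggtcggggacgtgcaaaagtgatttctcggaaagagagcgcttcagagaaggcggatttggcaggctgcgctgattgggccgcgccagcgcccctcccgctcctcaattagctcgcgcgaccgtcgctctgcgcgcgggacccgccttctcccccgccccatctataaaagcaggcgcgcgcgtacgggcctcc
Irf8, second start, chr8:120738389-120738638, plus strand: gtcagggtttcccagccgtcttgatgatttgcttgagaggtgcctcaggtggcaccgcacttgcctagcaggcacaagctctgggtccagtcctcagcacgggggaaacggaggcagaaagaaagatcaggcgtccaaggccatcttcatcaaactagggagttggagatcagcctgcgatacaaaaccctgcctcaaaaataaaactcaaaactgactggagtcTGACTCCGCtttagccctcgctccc
F13a1, chr13:37050245-37050494, minus strand: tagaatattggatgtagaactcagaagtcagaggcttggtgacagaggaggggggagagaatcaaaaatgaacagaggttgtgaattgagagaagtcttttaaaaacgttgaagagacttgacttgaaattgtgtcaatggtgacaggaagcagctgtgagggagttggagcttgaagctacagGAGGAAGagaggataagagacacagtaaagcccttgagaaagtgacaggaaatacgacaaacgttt
Ly6c2, chr15:75111972-75112221, minus strand: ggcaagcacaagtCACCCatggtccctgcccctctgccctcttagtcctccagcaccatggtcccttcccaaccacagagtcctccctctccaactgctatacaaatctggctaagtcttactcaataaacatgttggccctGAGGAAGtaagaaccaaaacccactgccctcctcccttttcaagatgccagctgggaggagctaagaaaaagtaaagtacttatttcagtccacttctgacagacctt

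The windows of Klf4 and of the first start of Irf8 held none of the 4 motifs, and were rich in G and C, at 74.0% and 67.2% against a median of 52.4% over all windows. F13a1 held GAGGAAG with its first base at -66 from the start, and Ly6c2 held it at -108 and CACCC at -237. The second start of Irf8 held the core of the antioxidant response element at -25, the only match to this motif among the 10 windows. Over all 32851 windows of this length, GAGGAAG was in 10.6%, the interferon regulatory factor motif in 2.98%, TGACNNNGC in 10.2% and CACCC in 52.0%. Over the 10 windows of monocyte genes, these counts were 3, 0, 1 and 3. The windows of Ly6c2 overlap, and the GAGGAAG at -108 lies in both, so the windows are not independent. A match of letters does not show that a factor bound there.

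Other genes of the monocyte programme were grouped by role. Of 17 tested transcription factors of monocyte development, 2 were called lower in GC-KO vs. GC-WT, Stat3 at -1.10 ± 0.21 (adjusted p = 0.000478) and Klf2 at -1.07 ± 0.22 (adjusted p = 0.000712). In FL-KO vs. FL-WT, 7 were called lower. Cebpa, which primes myeloid progenitors, was at -1.20 ± 0.14 (adjusted p = 9.88e-07), and Spi1, which encodes PU.1, fell from 54.6 to 20.6 TPM on average (-1.30 ± 0.19, adjusted p = 8.2e-06). Stat3 was at -1.41 ± 0.21 and Klf2 at -1.41 ± 0.22. Over all tested genes, 3.04% were called lower on the ground and 8.36% in flight. By the adjusted p alone, 11 and 13 of the 17 were lower, against 42.9% and 47.2% of tested genes. The list had a median of -0.59 on the ground and -0.83 in flight, and none of it was called in either comparison of flight with ground. With median-of-ratios scaling, the calls between genotypes were 0 and 2, against 62 and 381 of 12373 tested genes.

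Of 16 tested genes of signalling from the receptors, 3 were called lower between genotypes on the ground and 9 in flight, against 3.04% and 8.36% of tested genes. By the adjusted p alone, 13 were lower in each, against 42.9% and 47.2%, and the medians were -0.77 and -1.04. On the ground, Cbl, Plcg2 and Pik3cd were called. In flight, Gnai2, a G protein subunit used by chemokine receptors, fell from 183.2 to 64.8 TPM (-1.43 ± 0.19, adjusted p = 1.89e-06), and the leukocyte PI 3-kinase subunit Pik3cd from 16.5 to 3.87 TPM (-1.76 ± 0.24, adjusted p = 2.63e-06). Tyrobp, an adaptor of myeloid receptors, was the most abundant of the list and did not pass, at 903.1 TPM in FL-WT and 783.7 TPM in FL-KO mice. Between flight and ground, Arrb1, an arrestin, was called lower in Nrf2-KO mice at -1.16 ± 0.17 (adjusted p = 3.33e-05), as 1 of 16 genes, against 2.13% of tested genes. With median-of-ratios scaling, the calls were 0, 2 and 0, against 62, 381 and 22 of 12373 tested genes.

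Of 12 tested ligands and co-receptors, 1 was called lower on the ground and 2 in flight, against 3.04% and 8.36% of tested genes. By the adjusted p alone, 6 and 8 were lower, against 42.9% and 47.2%, and the medians were -0.28 and -0.53. Itgb2, the beta chain of the leukocyte integrins, was called lower in both comparisons of Nrf2-KO with WT mice, at -1.37 ± 0.24 (adjusted p = 0.000411) and -1.81 ± 0.24 (adjusted p = 2.38e-06). Lbp, which delivers lipopolysaccharide to Cd14, was called lower in flight, at -1.35 ± 0.19 (adjusted p = 3.16e-06), and was just short of the fold threshold on the ground, at -0.99 ± 0.19 (adjusted p = 0.000459), whereas Tlr4 and Ly96 did not pass in either. The growth factor Csf1 was at 2.32 TPM in FL-WT and 1.31 TPM in FL-KO mice (-0.50 ± 0.14, adjusted p = 0.00528).

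Other genes of classical monocytes had medians of -0.11 on the ground and -0.23 in flight, no lower than those of all genes. Of 20 tested, 1 was called lower on the ground and 3 in flight, against 3.04% and 8.36% of all tested genes. By the adjusted p alone 7 were lower on the ground and 10 in flight, where 42.9% and 47.2% of all tested genes were. On the ground 3 were higher, against 3.13% of tested genes. Itgam, the alpha chain of the integrin Mac-1, which neutrophils also carry, was lower in both, at -1.33 ± 0.23 (adjusted p = 0.000407) and -1.76 ± 0.23 (adjusted p = 1.79e-06). In flight, Pld4 at -1.40 ± 0.21 and Mpeg1 (adjusted p = 5.71e-05) also passed, and on the ground they were at -0.95 and -0.80. Lyz2, lysozyme, did not pass, at 2940.6 TPM in GC-WT, 3029.0 TPM in GC-KO, 3429.8 TPM in FL-WT and 3056.9 TPM in FL-KO mice, and neither did Ms4a6c or Ccl9. After flight in WT mice none of the 20 was called with limma, and 4 were higher by the adjusted p alone, S100a4, Chil3, Ms4a6b and Vcan, at 0.25 to 0.48, as were 0.994% of tested genes.

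Of 13 genes of non-classical monocytes, Itgal was called lower in both comparisons, at -1.44 ± 0.26 (adjusted p = 0.000416) and -1.94 ± 0.26 (adjusted p = 2.39e-06), and Spn, which encodes CD43, in flight at -1.32 ± 0.19 (adjusted p = 5.7e-06). T cells carry both. Nr4a1, on which these monocytes depend, was at 1.76 TPM in FL-WT and 0.47 TPM in FL-KO mice (-0.82 ± 0.19, adjusted p = 0.000703), whereas Fcgr4 did not pass. Cd36 was higher in both by the adjusted p, at 0.54 and 0.45, as 1 of 1 higher genes of the list on the ground and 1 of 2 in flight, where 3.13% and 1.91% of tested genes were higher. In all, 1 of 13 was called lower on the ground and 2 in flight, against 3.04% and 8.36% of tested genes. By the adjusted p alone, 5 and 6 were lower, against 42.9% and 47.2%. The list had a median of -0.29 on the ground and -0.22 in flight, near that of all genes. In the comparisons between flight and ground, 0 of the ligands and co-receptors, classical and non-classical genes were called lower with limma, whereas by the adjusted p alone 7 of 12, 6 of 20 and 7 of 13 were lower in Nrf2-KO mice, where 53.1% of all tested genes were.

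**Figure D5:**
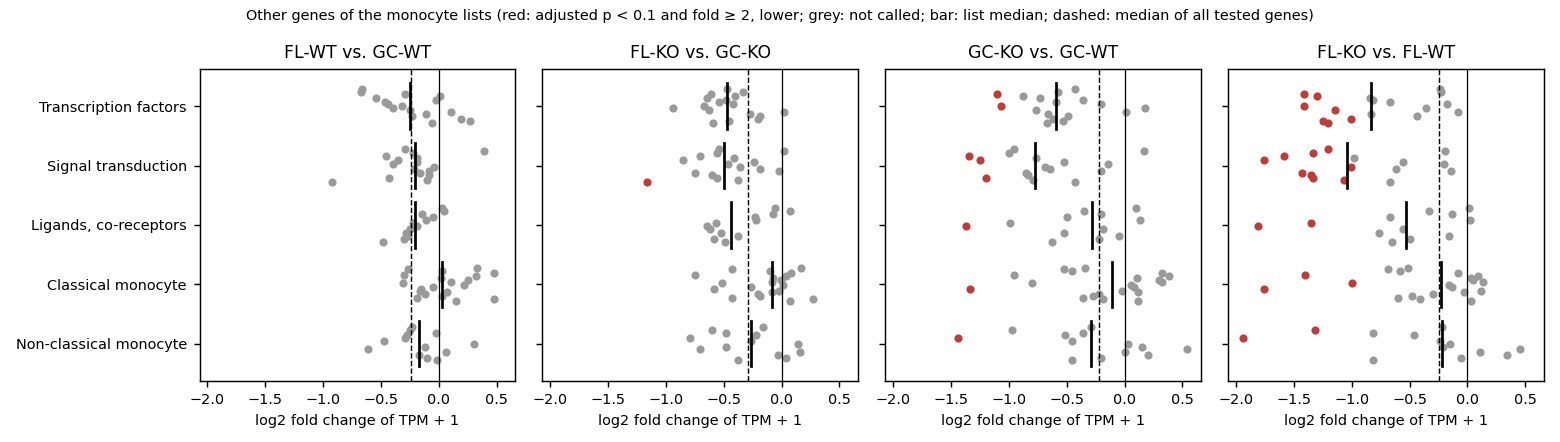
Log2 fold changes of the tested genes of 5 lists (points, red where called lower and grey where not) with each list's median (bar) and the median of all tested genes (dashed line) in 4 comparisons. Transcription factors and signalling genes have medians of -0.83 and -1.04 in FL-KO vs. FL-WT, against -0.23 and -0.22 for the classical and non-classical lists.

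Markers of other marrow cells moved in parts. Between genotypes, 3.04% of all tested genes were called lower on the ground and 8.36% in flight. Promyelocyte genes had 1 of 6 called lower on the ground and 2 in flight, with Mpo at -1.72 and -2.39 and their sum at 654.8 to 1027.9 TPM in GC-WT, 560.5 to 1259.1 in FL-WT, 412.4 to 850.6 in GC-KO and 371.8 to 527.2 TPM in FL-KO mice. Mature neutrophil genes had 3 of 12 called lower in both, Mmp9, Ltf and Csf3r, while S100a8 and S100a9 were higher on the ground by the adjusted p, at 0.48 and 0.45. By the adjusted p alone, 5 of 12 were lower and 3 higher on the ground, against 42.9% and 3.13% of tested genes. In flight 8 were lower and 0 higher, against 47.2% and 1.91%. Neutrophil genes summed to 29852.1 to 55796.9 TPM in GC-WT, 44470.4 to 62447.8 in FL-WT, 41810.7 to 64100.8 in GC-KO and 50059.3 to 67271.2 TPM in FL-KO mice. Most of this sum was S100a8 and S100a9, which averaged 23346.9 and 25261.4 TPM of a mean sum of 55973.1 TPM in FL-KO mice. Tissue macrophage genes, which share Csf1r with monocytes, had 0 of 9 called lower on the ground and 1, Cd5l, in flight, and summed to 68.1 to 125.4 TPM in GC-WT, 59.0 to 105.2 in FL-WT, 73.3 to 90.6 in GC-KO and 43.1 to 74.5 TPM in FL-KO mice. Osteoclast genes had 1 of 3 called lower in both, Mmp9 again, and summed to 110.4 to 233.3 TPM in GC-WT, 93.8 to 295.1 in FL-WT, 49.2 to 108.8 in GC-KO and 25.6 to 42.8 TPM in FL-KO mice. Mmp9, also on the neutrophil list, averaged 150.8 of a mean sum of 182.9 TPM in GC-WT and 16.8 of 34.8 TPM in FL-KO mice. On the ground and in flight, Acp5 was at -0.25 and -0.42 (limma, adjusted p = 0.131 and 0.00927). Ctsk was at -0.27 and -0.03 (limma, adjusted p = 0.486 and 0.949). Erythroid genes had 0 of 7 called lower on the ground and 2 in flight, and summed to 50797.2 to 121076.6 TPM in GC-WT, 88065.9 to 121278.3 in FL-WT, 99324.1 to 148426.2 in GC-KO and 93642.2 to 136463.6 TPM in FL-KO mice. After flight in Nrf2-KO mice, where Csf1r, Irf8, Klf4 and Cx3cr1 were lower by the adjusted p, 2.13% of tested genes were called lower. Of the markers, 3 of 7 erythroid, 2 of 7 megakaryocyte and 1 of 6 stromal genes were called lower. So were Mpo, as 1 of 6 promyelocyte genes, at -1.06 ± 0.31 (limma, adjusted p = 0.00981), and Mmp9, as 1 of 12 neutrophil and 1 of 3 osteoclast genes, at -1.17 ± 0.33 (adjusted p = 0.00821). By the adjusted p alone, 8 of 9 tissue macrophage, 8 of 9 B lineage, 7 of 7 megakaryocyte, 6 of 6 stromal, 5 of 7 erythroid and 2 of 3 osteoclast genes were lower. So were 3 of 8 dendritic, 3 of 12 neutrophil, 1 of 6 promyelocyte and 1 of 8 T and NK cell genes, against 53.1% of tested genes. None of these genes was at 0 in a whole group. The part of these cells in the results on the monocyte genes was not tested.

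The patterns of the monocyte genes over the 24 libraries were compared. Likeness was measured as the root mean square difference of standardized log2(TPM + 1), in SD units, where a small value means a similar pattern. Csf1r, Klf4, Irf8, Fn1, F13a1 and Cx3cr1 lay 0.20 to 0.46 from each other. Ly86 lay 0.60 to 1.38 and Cd14 0.93 to 1.49 from all others, and Ccr2 was nearest to Ly86, at 0.60. The points share their libraries, and no test applies. Of 5018 other genes averaging 5 TPM or more, those nearest to Csf1r were Esyt1 and Rps6ka1 (0.10 for both), to Klf4 Cyfip1 (0.12) and Sirpa (0.13), to Irf8 Mpeg1 (0.14) and Cdk9 (0.15), and to Fn1 Plec (0.15) and C3 (0.16). Nearest to F13a1 were Wdr1 (0.21) and Chil1 (0.22), to Cx3cr1 Rasgrp2 (0.21) and Mbp (0.22), and to Ly6c2 Pilrb2 (0.27) and Lmo4 (0.29). The others had looser neighbours, Gm34680 (0.34) and AI839979 (0.37) for Ccr2, Ei24 (0.43) for Ly86, and Antxr2 and Junb (0.59 for both) for Cd14.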

How the data were processed

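The members and gene lists were chosen with earlier results of these data known. RNA-seq was performed on 24 bone marrow samples, grouped by their labels. The authors isolated RNA from cryopreserved cells with ISOGEN-LS, prepared directional libraries (MGI) from 200 ng, and used STAR 2.6.1 with mm10 and, for the TPM values, RSEM 1.3.1. The deposited table gives TPM alone, with column sums of 999999.5 to 1000001.1, so the depth is unknown.

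Of 54752 genes, 54723 matched GENCODE M21. Values of the 12373 genes above 1 TPM in at least 1 library were transformed as log2(TPM + 1), which understates fold changes of low genes. All 24 libraries entered one limma fit (limma 3.58.1, R 4.3.3) with group means. Calls required a fold change of 2 or more and an adjusted p (Benjamini-Hochberg) below 0.1, after the study's thresholds. Single genes and ratios were also compared by exact two-sided permutation tests. Python 3.11.15 was used with pandas 2.3.3, numpy 2.4.6, matplotlib 3.10.9 and scipy 1.17.1. The scripts were tested on simulated data. GC content and length, taken from the longest transcript, were at hand for 12370 tested genes.

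The text names the 10 monocyte genes, up to 4 genes with the lowest limma p per list and comparison, and the 2 genes nearest to each monocyte gene in pattern. For Ly86, 1 of these is not reported here. Other genes named from the lists were chosen after their values were seen. Alternatives were median-of-ratios scaling, quantile normalization, removal of GC content and length trends, leaving out 5 small RNAs, a pseudocount of 0.1, testing all genes or those above 1 TPM in 6 or more libraries, limma with a mean-expression trend, fitting 2 groups at a time, an adjusted p below 0.05, dropping the fold threshold, a block for the mouse number, and omitting each library in turn. Nothing shows whether mice of a group were littermates, so p-values measure the spread between these mice.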

Additional observations from a re-analysis of the deposited data

Results flagged for a closer look

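In 52 sets of 6 mice (the 10 genes and 3 ratios in 4 groups), the highest or lowest mouse was checked for a gap to the others beyond Dixon's 95% limit, which chance passes in about 1 of 20 sets. It was passed 3 times, each time by a high value. Ly86 was at 26 TPM in GC-KO mouse 11, against 19.3 to 21.5 TPM in the other GC-KO mice. Klf4 was at 2.17 TPM in FL-KO mouse 11, against 1.23 to 1.52 TPM in the other FL-KO mice. Cd14 was at 2.64 TPM in FL-KO mouse 1, against 0.54 to 1.3 TPM in the others, and without that mouse its log2 fold change after flight in Nrf2-KO mice turned from 0.04 to -0.12.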

How the results depend on the processing

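For flight in WT mice and for the interaction, 0 monocyte genes were called under each alternative run, among them each library left out. The interaction was not fitted with 2 groups at a time. In FL-KO vs. GC-KO, 1 was called with a pseudocount of 0.1, 4 with no minimum fold, and 0 to 1 with a library left out. In GC-KO vs. GC-WT, where 2 were called, 4 were with a pseudocount of 0.1 and without the 5 small RNAs, 1 with median-of-ratios scaling, with quantile normalization and with GC content and length trends removed, 8 with no minimum fold, and 2 to 4 with a library left out. In FL-KO vs. FL-WT, where 5 were, 2 were called with median-of-ratios scaling, quantile normalization and GC content and length trends removed, 4 without the 5 small RNAs, and 3 to 5 with a library left out. The cause was not tested.

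Signs turned for genes that had not passed the fold threshold. In this order, values are for median-of-ratios scaling and quantile normalization, then without the 5 small RNAs where 3 are given. In FL-WT vs. GC-WT, log2 fold changes turned to 0.24 and 0.09 for F13a1, 0.05 and 0.05 for Klf4 and 0.15 and 0.19 for Cd14, and without the small RNAs to -0.00092 for Ccr2 and -0.02 for Ly86. In FL-KO vs. GC-KO, they turned to 0.26, 0.01 and 0.01 for Ly6c2, 0.19 and 0.10 for Ccr2, 0.31, 0.22 and 0.06 for F13a1 and 0.29, 0.23 and 0.05 for Ly86. In GC-KO vs. GC-WT, they turned to 0.27 and 0.16 for Ccr2 and 0.29 and 0.27 for Ly86, and in FL-KO vs. FL-WT to 0.10 and 0.04 for Ccr2 and 0.25 and 0.23 for Ly86. The Irf8 to Klf4 ratio turned to 0.03 in FL-KO vs. GC-KO with a pseudocount of 0.1. With a library left out, FL-WT vs. GC-WT ranged from -0.10 to 0.12 for Ccr2, -0.07 to 0.07 for Ly86 and -0.15 to 0.01 for Cd14, FL-KO vs. GC-KO from -0.12 to 0.13 for Cd14, and GC-KO vs. GC-WT from -0.20 to 0.03 for Ccr2 and -0.12 to 0.01 for Ly86.

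The same mouse numbers occur on the ground and in flight, but same-numbered mice did not deviate together throughout (r from -0.051 to 0.397 over 5025 genes, above 0.1 in 6 of 12 pairs, and highest with the own number for 3 of 12 mice). With the mouse number as a block, 0 monocyte genes were called after flight in either genotype, as without it, and 4 and 5 were lower by the adjusted p alone, against 0 and 4. In WT mice these were Cx3cr1, Irf8, Csf1r and Fn1 (limma, adjusted p = 0.0363, 0.0483, 0.0555 and 0.0898). The share of tested genes lower by the adjusted p with the block is not at hand. Tested genes with an unadjusted p under 0.05 (limma) rose with the block from 5291 to 6283 in WT mice. In Nrf2-KO mice they rose from 6492 to 7255. No block was possible between genotypes, which share no numbers. Over all tested genes, lower calls numbered 116 for flight in WT mice, 264 for flight in Nrf2-KO mice, 376 for genotype on the ground and 1034 in flight. In that order they were 16, 22, 62 and 381 under median-of-ratios scaling, 32, 25, 86 and 309 under quantile normalization, and 494, 925, 946 and 1984 with a pseudocount of 0.1. Without the small RNAs there were 230 for flight in WT mice and 902 for genotype on the ground, and with GC content and length trends removed 166 for genotype on the ground and 522 in flight.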
